A study of Homo sapiens with 7 samples.

Results

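The olfactory receptor genes were chosen by name: protein-coding genes on the autosomes whose symbol is OR followed by a family number, 1 or more capital letters and a last number, as in OR10A7. There were 389 such genes among 19122 protein-coding autosomal genes. They lay on 17 chromosomes, with 171 on chromosome 11, 61 on chromosome 1, 25 on chromosome 9, 24 on chromosome 14 and 20 on chromosome 19. Each gene was placed in the 50 kb bin that holds its leftmost coordinate, and each bin carried the interaction cluster that the study's authors gave it. In all, 251 of the 389 genes (the clustered members) started in a bin with a cluster, and 138 (35.5%) started in a bin with none. Of all protein-coding autosomal genes, 16.7% started in a bin with none.

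The study mapped DNA contacts by Hi-C in DLD-1 cells, a colorectal adenocarcinoma cell line in which DNMT1, the enzyme that maintains DNA methylation, carries an auxin-inducible degron (DNMT1-AID). Its 7 libraries came from DNMT1-AID cells with no treatment, with auxin for 4 or 10 days or with auxin for 4 days and a washout of 4 days, and from DNMT1-AID cells labelled DNMT3b -/- with no treatment or with auxin for 4 or 10 days. The untreated knockout library is named as a knockout in its title, while its genotype label gives only DNMT1-AID. Each group held 1 library, and the labels do not say whether a line was 1 clone. Clusters were read for the untreated DNMT1-AID library alone, which carries the degron but had no auxin, so the values below describe 1 clustering of 1 library, with no test and no error between samples. The olfactory receptor genes were not analysed here in the other 6 libraries. That library held 114710963 contacts, of which 90196383 joined positions on 1 chromosome at least 100 kb apart and 24514580 joined different chromosomes.

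Olfactory receptors are G protein-coupled receptors that bind odorants on the cilia of olfactory sensory neurons. Each mature neuron expresses a single receptor gene from 1 allele, and the rest of the repertoire stays silent in repressive chromatin. The genes sit in tandem arrays of near copies, their coding sequence usually lies in 1 exon, and they fall into class I (families 51 to 56, the receptors first known from fish) and class II (all other families). DLD-1 cells are not olfactory cells, and transcription was not measured in these files. In Hi-C maps, bins that share contact partners across the genome are grouped into clusters. In the usual naming, A1 and A2 are gene-rich, mostly active chromatin, B2 and B3 are gene-poor, late-replicating chromatin, and B4 is a small compartment of zinc finger gene arrays. The authors' clusters are named B2/B3, B4, V+VI, A2 and A1, and the labels do not explain V+VI.

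The stretches before 4 of the genes show what the starts of these genes look like. RefSeq (GRCh38.p14) gives 250 bases before the start of 311 members, each CpG below is in capitals, and all are written 5′ to 3′ on the gene's strand. The first 3 were taken as the member with an entry whose start is nearest the median start of its block. OR8H2, in B2/B3, comes from the largest class II run of chromosome 11 (chr11:56103437-56103686, plus strand, 0 CpG). OR2A25, in V+VI, comes from the largest block outside B2/B3 (chr7:144069561-144069810, plus strand, 1 CpG). OR52H1, a class I gene, comes from the largest block, which has no cluster (chr11:5548541-5548790, minus strand, 1 CpG). OR1F1 lay in A1 and was chosen after its CpG count of 18 was seen (chr16:3187954-3188203, plus strand).
OR8H2: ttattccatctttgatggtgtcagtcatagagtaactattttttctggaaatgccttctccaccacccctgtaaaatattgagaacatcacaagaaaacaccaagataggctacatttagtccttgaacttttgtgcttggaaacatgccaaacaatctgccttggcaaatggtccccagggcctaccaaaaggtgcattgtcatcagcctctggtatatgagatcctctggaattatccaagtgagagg
OR2A25: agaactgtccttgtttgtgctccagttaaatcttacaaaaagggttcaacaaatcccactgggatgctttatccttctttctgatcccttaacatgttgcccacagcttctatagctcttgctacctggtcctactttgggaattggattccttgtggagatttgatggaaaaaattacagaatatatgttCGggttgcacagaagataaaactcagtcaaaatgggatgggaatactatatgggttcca
OR52H1: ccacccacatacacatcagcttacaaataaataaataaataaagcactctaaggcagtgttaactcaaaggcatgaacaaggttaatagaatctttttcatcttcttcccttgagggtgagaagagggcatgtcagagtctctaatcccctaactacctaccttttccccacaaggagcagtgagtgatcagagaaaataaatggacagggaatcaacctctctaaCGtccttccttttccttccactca
OR1F1: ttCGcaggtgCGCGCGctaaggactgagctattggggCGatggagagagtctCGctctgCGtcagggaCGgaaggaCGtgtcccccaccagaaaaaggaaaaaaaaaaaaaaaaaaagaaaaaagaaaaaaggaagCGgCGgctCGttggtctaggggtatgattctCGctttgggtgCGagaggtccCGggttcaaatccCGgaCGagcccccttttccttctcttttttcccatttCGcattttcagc
The first 3 stretches, from B2/B3, V+VI and no cluster, hold at most 1 CpG each. In the OR1F1 stretch, 72 of the 250 bases belong to an annotated proline transfer RNA gene, TRP-TGG3-5 (chr16:3188094-3188165). None of the other 3 stretches overlaps another annotated gene.

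B2/B3 held most of the clustered members. Of 251, 173 (68.9%) lay in B2/B3, 38 (15.1%) in V+VI, 26 (10.4%) in A2, 7 (2.79%) in B4 and 7 (2.79%) in A1. Over all 15928 clustered protein-coding genes the shares were 9.13% in B2/B3, 26% in V+VI, 37.1% in A2, 1.62% in B4 and 26.2% in A1. The members' share was therefore 7.55 times that of all genes in B2/B3, 0.583 times in V+VI, 0.280 times in A2 and 0.106 times in A1. Neighbouring members share bins and contacts and are not independent: the 389 genes start in 251 bins, of which 165 have a cluster, with at most 4 members in a bin. Counted by bin, 105 of the 165 bins (63.6%) lay in B2/B3, against 36.8% of all clustered bins and 10.8% of the bins in which any protein-coding gene starts. Weighted by block (blocks are defined below), with each of the 28 blocks that have a clustered member counted once, the mean share was 42.3% in B2/B3, 31.7% in A2 and 9.90% in A1. The large blocks thus carry much of the B2/B3 share. Without the members of chromosome 11, 100 of 169 (59.2%) lay in B2/B3.

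**Figure D1:**
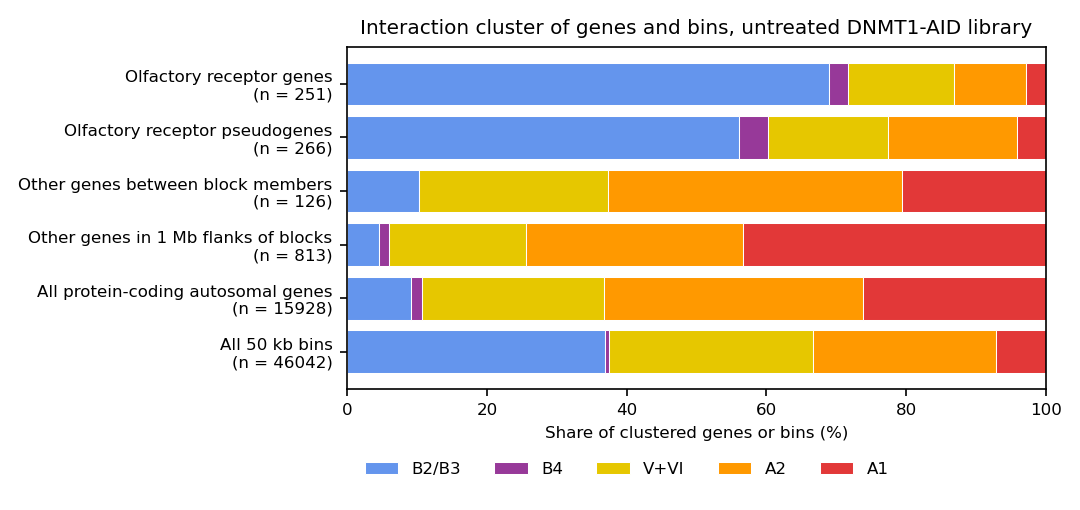
Share of clustered genes or bins in each interaction cluster (horizontal axis, percent) of the untreated DNMT1-AID library, for 6 sets of genes or bins with their number in parentheses. Olfactory receptor genes reach 68.9% in B2/B3 and their pseudogenes 149 of 266. Other genes between block members, pooled over all blocks, reach 10.3% and all protein-coding genes 9.13%.

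The inactive copies of the family also lay most often in B2/B3. Of 470 olfactory receptor pseudogenes, 266 lay in a clustered bin, with 149 in B2/B3, 49 (18.4%) in A2, 46 in V+VI, 11 in B4 and 11 in A1. Their share in B2/B3 was 6.14 times that of all genes. Members and pseudogenes lie among each other in the same arrays and share bins, so the second count is not independent of the first.

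Pooled over all blocks, the other genes of the same stretches had a different makeup. Within the spans of the blocks, 126 protein-coding genes that are not olfactory receptors lay in clustered bins. Of them, 13 (10.3%) were in B2/B3, 34 (27.0%) in V+VI, 53 (42.1%) in A2, 26 (20.6%) in A1 and 0 in B4. They lie unevenly over the blocks. OR11H2 to OR6J1 on chromosome 14 holds 41 of them and OR7C1 to OR10H4 on chromosome 19 holds 20, none in B2/B3. In B2/B3 were 6 of 9 in OR10T2 to OR10J5 and 3 of 14 in OR9Q1 to OR10V1. Both such genes in OR2B11 to OR14I1 and both in OR6X1 to OR8A1 were also in B2/B3. In the 1 Mb on either side, 37 of 813 (4.55%) were in B2/B3 and 352 (43.3%) in A1. Members in bins of their own and members in shared bins also differed. Of the 232 clustered members whose bin holds no other protein-coding start, 168 (72.4%) lay in B2/B3. Among the 19 in a bin with another gene, 5 (26.3%) lay in B2/B3, 8 in V+VI, 3 in A2 and 3 in A1.

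Members lay in B2/B3 more often where fewer other genes were near. With 0 to 3 other protein-coding genes starting within 500 kb, 54 of 58 clustered members (93.1%) were in B2/B3. The count was 60 of 78 (76.9%) with 4 to 9 such genes and 59 of 96 (61.5%) with 10 to 19. None of the 19 members with 20 or more was in B2/B3: 13 were in A2, 4 in A1 and 2 in V+VI. Other protein-coding genes showed lower shares in the first 3 of these classes, at 638 of 1810 (35.2%), 405 of 5040 (8.04%) and 120 of 4327 (2.77%), and 118 of 4500 (2.62%) in the last. The median number of other genes within 500 kb was 5 for members in B2/B3, 2 in B4, 11 in V+VI, 19 in A2 and 27 in A1. For other genes the medians were 4, 23, 6, 11 and 26 in the same order. Members in V+VI and A2 thus had more neighbours at the median than other genes of those clusters, and members in B4 had fewer. The B4 median rests on 7 members of 2 blocks, with 1 to 15 neighbours each. Olfactory receptor genes are not counted as neighbours, so a member's own array is left out.

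**Figure D2:**
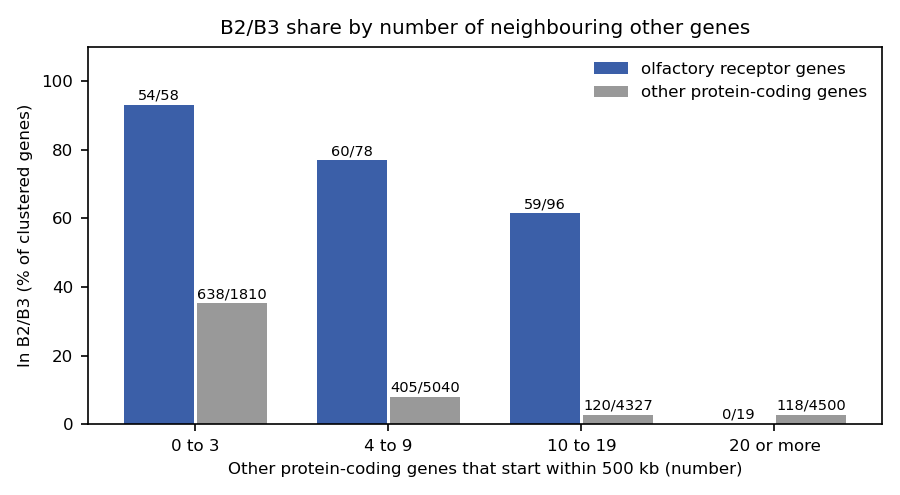
Share of clustered genes in B2/B3 (vertical axis, percent) by the number of other protein-coding genes that start within 500 kb (horizontal axis), for olfactory receptor genes (blue) and other protein-coding genes (grey), with the counts above each bar. Members fall from 93.1% with 0 to 3 neighbours to 0 of 19 with 20 or more, and other genes from 35.2% to 2.62%.

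The chromosomes differed widely. On chromosome 1, 42 of 43 clustered members (97.7%) were in B2/B3, against 12.1% of the other clustered genes of that chromosome. The members' share was 73 of 82 (89.0%) on chromosome 11, where other genes had 8.01%, and 20 of 25 (80%) on chromosome 9, where other genes had 3.72%. It was 14 of 18 (77.8%) on chromosome 12 against 8.16%, 14 of 21 (66.7%) on chromosome 14 against 4.66%, and 6 of 10 (60%) on chromosome 3 against 9.78%. Both clustered members of chromosome 15 were in B2/B3. Chromosomes 7 and 19 had few members in B2/B3, at 1 of 10 (10%) and 1 of 19 (5.26%), where other genes had 12.8% and 0.698%. The members' share was thus below that of other genes on chromosome 7 and above it on chromosome 19, on 1 gene each. No clustered member was in B2/B3 on chromosome 17 (0 of 11), chromosome 5 (0 of 3), chromosome 6 (0 of 3), chromosome 2 (0 of 2) or chromosome 16 (0 of 2). Other genes of these chromosomes had 2.23%, 13.5%, 11%, 8.125% and 2.92% in B2/B3, in the same order. With so few members, a count of 0 does not separate the members from other genes there. No member on chromosomes 8, 10 or 22 was in a clustered bin.

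Members that start less than 1 Mb from the next were joined into blocks, which gave 39 blocks of 1 to 67 genes. A block is called a B2/B3 block where at least 50% of its clustered members lie in B2/B3. By this count 13 blocks were B2/B3 blocks, with 229 members, of which 195 were clustered and 172 lay in B2/B3. Outside B2/B3 there were 15 blocks with 64 members, of which 56 were clustered and 1 lay in B2/B3. The remaining 11 blocks, with 96 members, had no clustered bin. Of the 28 blocks with a clustered member, 17 held 1 cluster name and 11 held several. Of the 15 blocks with at least 5 clustered members, 11 were B2/B3 blocks. Among the 13 with 1 to 4 clustered members, 11 were outside B2/B3. Of clustered members, 170 of 228 in the larger and 3 of 23 in the smaller blocks lay in B2/B3. Over all clustered protein-coding genes the share in B2/B3 was 9.13%, so most genes of any kind lie outside it. Other genes were fewer near the B2/B3 blocks, with a median of 7 within 500 kb of their members (1 to 13 over blocks), than near the outside blocks, with a median of 14.5 (5 to 39), and the ranges overlap.

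**Figure D3:**
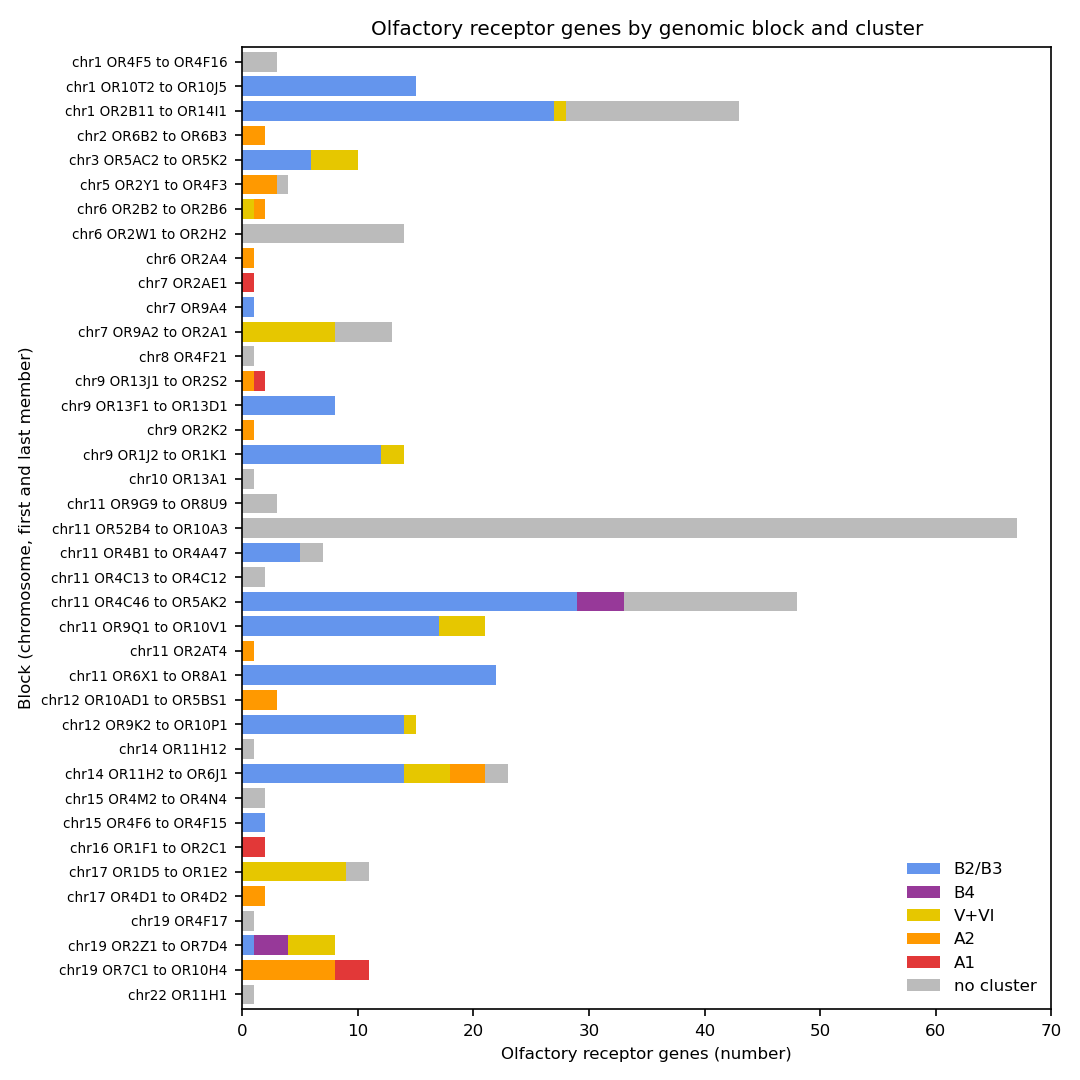
Number of olfactory receptor genes (horizontal axis) in each of the 39 blocks, named by chromosome and first and last member, with colours for the cluster of the gene's start and grey for no cluster. The largest block, OR52B4 to OR10A3 on chromosome 11, has 67 genes and no cluster, and the blocks of chromosomes 7, 17 and 19 with at least 5 clustered members are mostly V+VI, B4, A2 or A1.

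In 6 blocks all clustered members lay in B2/B3. The array from OR10T2 to OR10J5 (chr1:158398522-159536007) had all 15 of its members there, and OR6X1 to OR8A1 (chr11:123753580-124571374) all 22. OR13F1 to OR13D1 (chr9:104504263-104695462) had all 8, and OR4B1 to OR4A47 (chr11:48216810-48489722) had its 5 clustered members there, with OR4C5 and OR4A47 in no cluster. OR4F6 and OR4F15, near the end of chromosome 15 (chr15:101803509-101820197), share 1 bin, which was a B2/B3 stretch of 50 kb. OR9A4 (chr7:141916399-141920625) stands alone.

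The other 7 B2/B3 blocks also held members of other clusters, and most of these lay at the edges. The array at the end of chromosome 1, OR2B11 to OR14I1 (chr1:247449118-248702766, 43 members), had 27 of 28 clustered members in B2/B3. Only its first gene, OR2B11, lay in V+VI, and 15 members were in no cluster, 10 of them in 1 unclustered stretch from OR2T4 to OR2T10. OR1J2 to OR1K1 (chr9:122447433-122801073, 14 members) had its first and last genes in V+VI and the 12 between in B2/B3. OR9K2 to OR10P1 (chr12:55126406-55637833, 15 members) had 14 in B2/B3 and the last, OR10P1, in V+VI. On chromosome 3, OR5AC2 to OR5K2 (chr3:98087173-98498631, 10 members) changed once along its length, from 6 genes in B2/B3 to OR5K4, OR5K3, OR5K1 and OR5K2 in V+VI.

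The largest class II array of chromosome 11, OR4C46 to OR5AK2 (chr11:54603069-56989843, 48 members), had 29 of 33 clustered members in B2/B3. Its other 4, OR4A16, OR4A15, OR4C15 and OR4C16, lay in B4 on the centromeric side of the B2/B3 genes, 50 to 100 kb from a B2/B3 bin. OR9Q1 to OR10V1 (chr11:58023881-59713845, 21 members) had 17 in B2/B3, on both sides of a gap, and OR5B21, OR4D11, OR4D9 and OR10V1 in V+VI. In the gap lay genes of other kinds, such as CNTF, which encodes a neurotrophic factor, and MPEG1, which encodes perforin-2 of phagocytes. Of the 14 other genes in that span, 9 were in V+VI, 3 in B2/B3 and 2 in A2. The 3 in B2/B3 were GLYAT, GLYATL2 and GLYATL1, of the glycine N-acyltransferase family.

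The chromosome 14 array, OR11H2 to OR6J1 (chr14:19712936-22644352, 23 members), was the most mixed of the B2/B3 blocks. It had 14 of 21 clustered members in B2/B3, OR11H6, OR11H4, OR10G3 and OR10G2 in V+VI, and OR6S1, OR5AU1 and OR6J1 in A2. Its span also holds 41 other protein-coding genes, 37 in A2 and 4 in V+VI, among them the RNASE genes of secreted ribonucleases and ANG (angiogenin), all in A2. OR6S1 and OR5AU1 start among these genes. OR4E2 and OR4E1, beyond them, were again in B2/B3, next to OR10G2 in V+VI. OR6J1 was the farthest from any B2/B3 bin of all clustered members in the B2/B3 blocks, at 650 kb.

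**Figure D4:**
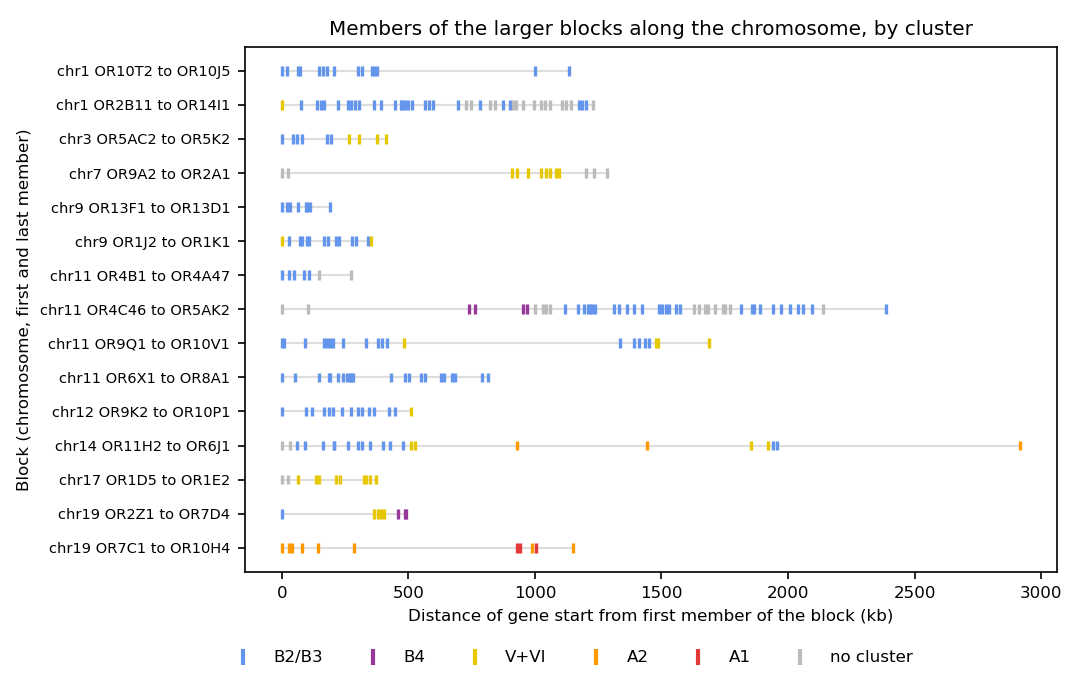
Members of the 15 blocks with at least 5 clustered members, placed by the distance of each gene start from the first member (horizontal axis, kb) and coloured by cluster, with grey for no cluster. In the B2/B3 blocks the members of other clusters lie mostly before or after the B2/B3 genes, while the clustered members of the chromosome 7 and chromosome 17 blocks are all in V+VI.

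Over these blocks, 23 members lay in a cluster other than B2/B3. Of the 23, 16 started before the first or after the last B2/B3 member of their block, and 11 started in a bin next to a B2/B3 bin. Their median distance to the nearest B2/B3 bin was 100 kb. In the blocks outside B2/B3, the 55 members in other clusters lay 100 to 10950 kb from the nearest B2/B3 bin, with a median of 3700 kb. The sorting of blocks in part fixes this difference, since a B2/B3 block holds B2/B3 bins by definition. Of the 173 members in B2/B3, 17 were in a bin next to another cluster. The 173 lay in 23 of the 1371 unbroken stretches of B2/B3 bins, with a median stretch of 500 kb over members (50 to 1100 kb) and of 1000 kb over the 1281 other genes in B2/B3. An unclustered bin also ends a stretch.

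The blocks outside B2/B3 fell into 2 kinds. The first kind was 4 arrays with at least 5 clustered members. OR9A2 to OR2A1 (chr7:143026200-144322737, 13 members) had all 8 clustered members in V+VI: OR2F2, OR2F1, OR6B1, OR2A5, OR2A25, OR2A12, OR2A2 and OR2A14. Of 19 other genes in its span, 14 were in V+VI and 5 in no cluster. The 14 include the bitter taste receptor genes TAS2R39, TAS2R40, TAS2R60 and TAS2R41, and the genes of the muscle chloride channel (CLCN1) and of caspase 2 (CASP2). Its members in V+VI lay 800 to 1000 kb from a B2/B3 bin.

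OR1D5 to OR1E2 (chr17:3062669-3433841, 11 members) had all 9 clustered members in V+VI: OR1G1, OR1A2, OR1A1, OR3A2, OR3A1, OR1R1, OR1E1, OR3A3 and OR1E2. No other protein-coding gene starts within its span, and its nearest B2/B3 bin was 6950 to 7250 kb away. OR1A1, one of the receptors whose ligands have been studied in detail, and the whole OR3 family of 3 genes lie here. Although no other gene starts between them, the members of this array had a median of 11 other protein-coding genes within 500 kb. The median over the B2/B3 blocks was 7 (1 to 13 over blocks), so this array lies within their range. OR10T2 to OR10J5 on chromosome 1, wholly in B2/B3, also had a median of 11.

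On chromosome 19, OR2Z1 to OR7D4 (chr19:8721634-9252625, 8 members) held 3 clusters in order. OR2Z1 was in B2/B3, then OR1M1, OR7G2, OR7G1 and OR7G3 in V+VI, and OR7D2, OR7E24 and OR7D4 in B4. OR7D4 encodes a receptor for androstenone. The other genes of that span, ZNF558, MBD3L1, MUC16 and ZNF317, were all in V+VI. OR7C1 to OR10H4 (chr19:14798515-15949958, 11 members) was the largest array in the A clusters. OR7C1, OR7A5, OR7A10, OR7A17, OR7C2, OR1I1, OR10H5 and OR10H4 were in A2, and OR10H2, OR10H3 and OR10H1 in A1. Of 20 other genes in that span, 13 were in A1 and 7 in A2, among them NOTCH3 and the CYP4F genes of fatty acid omega-hydroxylases.

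The second kind was 11 blocks with 1 to 3 clustered members, none of them in B2/B3. Those wholly in A2 were OR6B2 with OR6B3 (chr2:240029491-240053521), OR2Y1, OR2V1 and OR2V2 near the end of chromosome 5 (chr5:180739123-181370030, with OR4F3 in no cluster), OR2A4 (chr6:131699644-131701401) and OR2K2 (chr9:111327229-111330224). OR2AT4 (chr11:75081753-75096890), OR10AD1, OR8S1 and OR5BS1 (chr12:48202339-48562956), and OR4D1 with OR4D2 (chr17:58148384-58171116) were also in A2. OR2AE1 (chr7:99876062-99877033) was in A1, as were OR1F1 and OR2C1 (chr16:3188204-3358137). OR13J1 in A1 and OR2S2 in A2 formed a pair on chromosome 9 (chr9:35869463-35958154), and OR2B2 in V+VI and OR2B6 in A2 a pair on chromosome 6 (chr6:27911185-27958182). OR2AT4 encodes a receptor known for its activation by sandalwood odorants in skin keratinocytes. The OR6B2 and OR6B3 pair was farthest from B2/B3, at 10950 kb.

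Altogether 10 blocks consisted of 1 gene. Of these, 5 were clustered, with OR9A4 in B2/B3, OR2A4, OR2K2 and OR2AT4 in A2 and OR2AE1 in A1.

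The 11 blocks with no clustered bin include the largest of all. OR52B4 to OR10A3 (chr11:4367263-7941708) has 67 members and 43 other genes, and lies in an unclustered stretch from the first base of chromosome 11 to position 9750000. It contains all 55 class I genes (23 of family 51, 25 of family 52 and 7 of family 56) and 12 class II genes. Class I and class II could therefore not be compared by cluster. CNGA4, a subunit of the odorant-gated cation channel, also starts in this stretch. OR2W1 to OR2H2 (chr6:29044213-29590500, 14 members) lies in an unclustered stretch of 5000 kb. The rest are OR4F5 to OR4F16 (chr1:65419-720101, 3 members), OR4C13 and OR4C12 (chr11:49952391-49982535), OR4M2 and OR4N4 (chr15:22080527-22095862), and 5 blocks of 1 gene: OR4F21 on chromosome 8, OR13A1 on chromosome 10, OR11H12 on chromosome 14, OR4F17 on chromosome 19 and OR11H1 on chromosome 22. OR9G9, OR8U8 and OR8U9 are listed at the tip of chromosome 11 (chr11:18234-194908). The annotation table may give them the coordinates of an alternate scaffold, which was not checked, and as listed they are in no cluster.

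The families differed in their clusters. Of families with clustered members, OR9 (6 of 6), OR14 (5 of 5), OR8 (17 of 18), OR13 (9 of 10), OR5 (35 of 42) and OR6 (23 of 28) lay mainly in B2/B3. OR4 had 23 of 31 there, OR10 19 of 29, OR1 14 of 25 and OR2 20 of 39. None of the 11 OR7 genes was in B2/B3, with 5 in A2, 3 in V+VI and 3 in B4, and all lie in the 2 larger arrays of chromosome 19. Closely related genes that shared a block mostly shared a cluster. Of 51 subfamilies (genes with the same number and letters) with at least 2 clustered members, 44 lay in 1 block, and 41 of those had 1 cluster. The other 7 (OR2A, OR2B, OR2C, OR4C, OR4D, OR6B and OR10G) lay in several blocks, and all 7 had several clusters. OR4D spanned 3: OR4D5, OR4D6 and OR4D10 were in B2/B3, OR4D9 and OR4D11 in V+VI, and OR4D1 and OR4D2 in A2. As genes of a subfamily in 1 block often share a bin, this is a count of positions and not of independent genes.

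The 5 names are made from a clustering into 9 codes, and 3 codes make up B2/B3. Most members in B2/B3 were in 2 of them. Code 1 held 99 members (39.4% of the clustered members, and 4.37% of all genes) in 8 blocks: 51 on chromosome 11, 15 on chromosome 1, 14 each on chromosomes 12 and 14, 4 on chromosome 3 and 1 on chromosome 19. Code 2 held 62 (24.7%, and 2.13% of all genes) in 4 blocks: 27 on chromosome 1, 22 on chromosome 11, 12 on chromosome 9 and OR9A4 on chromosome 7. Code 0 held 12 (4.78%, and 2.62% of all genes), which were the 8 of OR13F1 to OR13D1, OR5H1 and OR5H14 on chromosome 3, and the pair on chromosome 15. In both large arrays of chromosome 1 and in the B2/B3 blocks of chromosome 11, the B2/B3 members of a block thus shared 1 code, either 1 or 2. Members of these blocks in other clusters had other codes.

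The codes differ in where their bins lie along the chromosome. Relative position runs from 0 at the first base to 1 at the last. All bins of code 1 had a median relative position of 0.367 and those of code 2 of 0.858, and the members in them had medians of 0.416 and 0.921. The members of code 2 lay at a median of 10.7 Mb from the nearer chromosome end, and those of code 1 at 56.1 Mb. The same division runs through V+VI, where code 4 bins had a median position of 0.371 and code 3 bins of 0.763, and through A2, with 0.350 for code 6 and 0.735 for code 7. Members followed it there as well: 26 in code 4 (median 0.172), 12 in code 3 (0.904), 18 in code 6 (0.256) and 8 in code 7 (0.991). The bins of code 0, also in B2/B3, had a median position of 0.612. On chromosome 1, OR10T2 to OR10J5 was in code 1 and the B2/B3 members of OR2B11 to OR14I1 in code 2. Both arrays lie past the middle of the chromosome: OR10T2 starts at position 158398522, 90.6 Mb from the nearer end. Whether position sets the code was not tested.

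The authors' table also gives 16 other clusterings, from 3 to 64 codes. They group the same bins of the same library and are not separate observations. The leading code of each is the code with the most members. It held a larger share of the members than of all genes in each, which that choice in part fixes. Its share of bins was 8.41% with 20 codes and 1.87% with 64. With 3 codes, 184 members (73.3%) had the leading code, which holds 10.6% of all genes and 37.4% of bins. With 20 codes, code 3 held 59 members (23.5%, and 1.99% of all genes) of 7 blocks on 5 chromosomes, and code 5 held 56 (22.3%, and 1.43%), of which 27 were on chromosome 1, 19 on chromosome 11, 9 on chromosome 9 and 1 on chromosome 7. Code 12 held 27 (10.8%, and 3.38%), among them all 9 clustered genes of OR1D5 to OR1E2. With 32 codes, the leading code held 48 members (19.1%), 24 on chromosome 1, 17 on chromosome 11 and 7 on chromosome 9. With 64 codes, members were spread over 44 codes. The leading code then held 28 (11.2%, and 0.64% of all genes), with 16 on chromosome 11, 11 on chromosome 14 and 1 on chromosome 1. Members of different chromosomes thus still shared a code at the finest clustering. A code groups bins of the whole genome, so genes of any kind can share one across chromosomes. The spread of other genes over chromosomes within a code was not compared.

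The stretches before the gene starts were poor in CpG in every cluster. Cytosines followed by guanine are the sites of DNA methylation that DNMT1 maintains, and most genes start in a CpG-rich stretch. In the 250 bases before the start, the 311 members with an entry had a median of 1 CpG (quartiles 0 and 2, range 0 to 31), 91 (29.3%) had 0 and 3 had at least 10. Of clustered members 1.45% had at least 10, against 70.1% of all clustered genes with an entry. Other clustered genes had a median of 18 (quartiles 7 and 26). The median GC content was 37.2% in members and 62.8% in other genes.

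The members' medians ran from 1 to 4 over the clusters. Their median was 1 in B2/B3 (n = 145), 1.5 in B4 (n = 6), 2 in V+VI (n = 32), 1 in A2 (n = 19), 4 in A1 (n = 5) and 1 in no cluster (n = 104). In other genes the medians were 7, 13, 18, 19, 20 and 16 in the same order. Members in A2 and A1 thus had medians below the medians of other genes in every cluster. Class I genes (n = 39) and class II genes (n = 272) both had a median of 1. The ratio of observed CpG to that from base content had a median of 0.133 in clustered members and 0.749 in all clustered genes. For 126 members (40.5%) an ATG stands at the annotated start, against 2.54% of other genes, so that start may be the coding start rather than the start of transcription. The median was 1 both with and without an ATG.

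**Figure D5:**
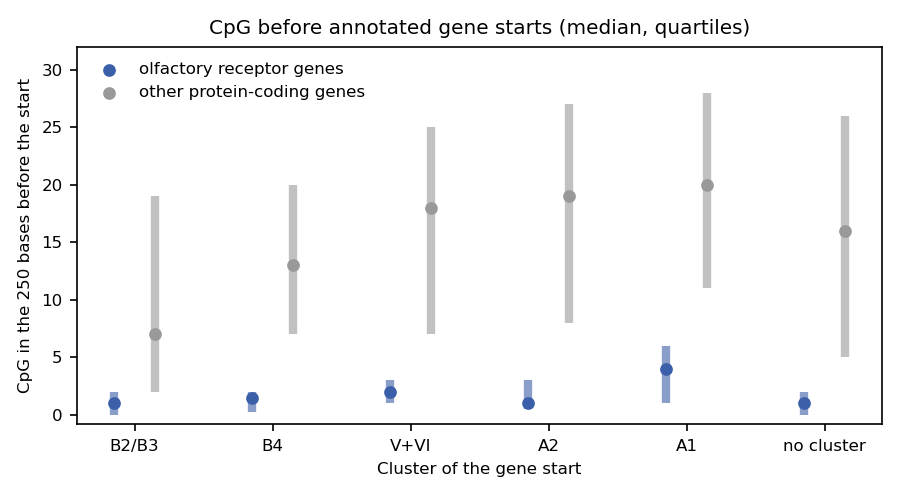
CpG count in the 250 bases before the annotated gene start (vertical axis) by cluster (horizontal axis), as median (point) and quartiles (bar), for olfactory receptor genes (blue) and other protein-coding genes (grey). Members have medians of 1 to 4 in each cluster, and other genes rise from 7 in B2/B3 to 20 in A1.

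The 3 members with at least 10 CpG were OR2L13 (16, in B2/B3), OR1F1 (18, in A1) and OR3A2 (31, in V+VI), singled out after their values were seen. Their annotated gene models are long, at 163987, 18353 and 110196 bases, against a median of 2996 bases over all members. The OR3A2 window overlaps the gene OR1R1, and the OR1F1 window printed above contains the transfer RNA gene, so these CpG need not belong to a receptor promoter.

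The genes that carry the odorant signal lay most often in A2. Of 23 genes of odorant signalling and receptor choice, 18 were clustered, with 10 in A2, 3 in A1, 2 in V+VI and 3 in B2/B3 (16.7%, against 9.13% of all genes). A2 is also the cluster with the most genes in all, at 37.1%. Those in A2 include GNAL, the G protein subunit of the odorant response, ADCY3, the adenylyl cyclase it activates, CNGB1, a subunit of the cyclic nucleotide-gated channel, and ANO2, a calcium-activated chloride channel. OMP (olfactory marker protein), SLC24A4, RIC8B, LHX2, RTP1 and REEP1 were also in A2. RTP1 and REEP1 help receptors reach the cell surface, as does RTP2, which was in V+VI with the transcription factor gene EMX2. LDB1, the cofactor of LHX2, was in A1 with ATF5 and GFY. EBF1, a transcription factor of olfactory neurons, PDE1C, a phosphodiesterase of their cilia, and NCAM2, an adhesion molecule, were in B2/B3. GNB1, GNG13, STOML3, KDM1A and CNGA4 were in no cluster.

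Other chemosensory receptor genes lay in other clusters again. All 6 trace amine receptor genes, which share 1 array on chromosome 6, were in A2, and the 3 vomeronasal genes VN1R1, VN1R2 and VN1R4 of chromosome 19 were in B4. Of 25 bitter taste receptor genes 11 were clustered, with 8 in V+VI, 2 in B2/B3 and 1 in A1. TAS2R38, in B2/B3, starts near OR9A4 on chromosome 7, which was also in B2/B3. The gene in A1, TAS2R45, may have the coordinates of an alternate scaffold in the table, which was not checked.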

How the data were processed

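The submitters' processing notes name BWA and hg38, and give no version of BWA. The authors deposited, for untreated DNMT1-AID cells, 50 kb bins with 5 cluster names and with k-means codes from 17 clusterings of 3 to 64 codes. Names and 9-way codes matched in every bin, and 46042 of 57509 bins have a cluster. Depth was summed from the deposited raw counts of contacts, per the file headers.

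Gene positions came from a table of RefSeq GRCh38.p14 genes without a strand column, so the leftmost coordinate was used, with the 5′ end as an alternative where a promoter entry gives the strand. Promoter bases came from RefSeq. Python 3.11.15, pandas 2.3.3, numpy 2.4.6, SciPy 1.17.1 and matplotlib 3.10.9 were used, and the counting was tested on simulated data.

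No p-value was computed, since each group has 1 library. The members and lists were chosen with earlier results of these data known. Named genes are the first and last member of each block, single-gene blocks, members of blocks outside B2/B3 and list genes. Others were named after their values were seen. A list of 5 genes, none clustered, is not reported here.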

Additional observations from a re-analysis of the deposited data

How the results depend on the processing

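Of 100 values recomputed under 24 settings, 89 counted as unchanged. A share had to stay within its 95% exact binomial interval (62.8 to 74.6% for the B2/B3 share of members). A median CpG ratio had to stay within its 95% interval by rank, and a count within 1.5 times. The setting with the 9-way codes could not change a share, since names and codes matched in every bin. The intervals treat genes as independent, which they are not. With each block weighted equally, the share was 42.3% in B2/B3, 31.7% in A2 and 9.90% in A1. Without chromosome 11 the B2/B3 share was 59.2%. With all 389 members in the denominator, the shares were 44.5% in B2/B3, 9.77% in V+VI and 6.68% in A2. With pseudogenes counted as well, 62.3% lay in B2/B3. Class II members of chromosome 11 alone had 89.0% in B2/B3, against 68.9% on all chromosomes. Other genes within 1 Mb of the blocks had 5.32% in B2/B3, against 10.3% within the spans. The CpG ratio of all genes was 0.775 in a window of 300 bases, against 0.749. In every setting B2/B3 held the largest share of members. No paired analysis was possible because each group has 1 library and clusters were read for 1 library only. Alternatives for class I genes gave no value, since none is clustered. The shares of contacts behind a single bin were not analysed here, so the precision of a bin's cluster is unknown.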

Other observations

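Other gene arrays were counted in the same way. Counted by gene, each had a share in B2/B3 below the 68.9% of the olfactory receptor genes. That share was itself 59.2% without chromosome 11 and 42.3% with each block weighted equally, so the order is not firm. Of the 59 clustered keratin-associated protein genes, which encode matrix proteins of hair, 33 (55.9%) lay in B2/B3, 16 in A1 and 10 in A2. Another 35 were in no cluster. The 33 in B2/B3 all lie in 1 array of chromosome 21, KRTAP24-1 to KRTAP19-8. All 53 genes of the clustered protocadherins, adhesion molecules that give neurons their identity, were placed, with 41 in B4 and 12 in B2/B3 (22.6%). A list of 16 symbols that start with IFNA held 13 interferon alpha genes of chromosome 9, all in V+VI, and 3 genes of the interferon receptor on chromosome 21 (IFNAR1, IFNAR2 and IFNAR2-IL10RB), all in A2. The 55 histone genes of chromosome 6 were in A2 (50) and V+VI (5). Of 23 TRIM genes of chromosome 11, 21 were in no cluster, 1 was in V+VI and 1 in A2, too few for a share. Many genes of these lists are neighbours that share bins, and none was tested.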
